A study of Homo sapiens with 6 samples.

Results

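Chromatin accessibility was examined around the 8 genes that encode the MAF, NFE2 and BACH factors NFE2, NFE2L2, MAF, MAFF, MAFG, MAFK, BACH1 and BACH2. Every site of the deposited site table that overlapped a gene body, or the 50 kb on either side of it, was taken as a member, which gave 243 of 181135 sites. The rule used position alone and no measured value. The libraries came from K562, an established human line from a chronic myelogenous leukaemia with erythroid and megakaryocytic features, labelled wild type. All cells were grown in the same medium and received 25 nM PMA (phorbol 12-myristate 13-acetate, an activator of protein kinase C) for 0, 6 or 72 h to induce a megakaryocyte-like state. Medium was changed between the later times. Accessibility was measured by Omni-ATAC, in which a transposase cuts open chromatin, in 2 libraries per time. The labels do not say whether replicates were separate cultures, so every p-value measures only the spread between these libraries.

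The 8 proteins belong to one branch of the basic leucine zipper family. MAFF, MAFG and MAFK are small MAF proteins that lack a transactivation domain, and they pair with a larger partner to bind MAF recognition elements, which contain an AP-1-like core. NFE2, the p45 subunit of NF-E2, is such a partner and is required for platelet formation by megakaryocytes. NFE2L2 (NRF2) is the partner that drives antioxidant genes, and KEAP1 with CUL3 keeps it low. BACH1 and BACH2 are partners that mostly repress: BACH1 represses haem oxygenase and globin genes until haem displaces it, and BACH2 is best known from lymphocytes. MAF (c-MAF) is a large MAF protein with its own activation domain, known from macrophages and T cells. Accessibility of a locus is not expression of its gene, and no transcript was measured here.

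Counts in the listed sites summed to between 12258890 and 35548737 per library, and both of these extremes were libraries after PMA (6 h replicate 1 and 72 h replicate 2). Sites at starts of protein-coding genes held 43.6% and 45.9% of the counts at 0 h, 37.5% and 37.7% at 6 h and 25.8% in each library at 72 h. Where the reference tables give no strand for a gene, both of its ends count as starts throughout, and at starts of known strand alone the shares were 37.4% and 39.3%, then 32.1% and 32.3%, then 21.8% and 21.9%. This share moved with time, and its part in the promoter results below was not tested. Values are given as CPM (counts scaled per library to a common total) after TMM scaling, a scaling by trimmed mean of ratios between libraries, and fold changes as log2 ± SE from one edgeR quasi-likelihood fit over all tested sites. A site was called higher or lower where its p, adjusted by Benjamini and Hochberg over all tested sites, was under 0.05. Over all tested sites at starts, 10.1% were higher and 72.4% lower at 72 h, and the marker genes are read beside these shares. Of the erythroid markers, all 7 had a tested site at their start, and 6 were lower and 0 higher at 72 h. At GATA1, an erythroid master regulator, the mean went from 13.1 to 3.21 CPM by 6 h. Of 5 megakaryocyte markers, 3 had such a site (ITGA2B, GP9 and GP1BA), of which 0 were higher and 2 lower at 72 h. Of 12 markers of other cell types, 8 had one. At 72 h 2 of these 8 were called higher and 5 lower. The 2 were CSF1R (4.40 to 15.5 CPM), a receptor gene of the monocyte lineage, and MS4A1 (0.13 to 0.707 CPM), a B cell gene, while the monocyte genes CD14 and CD163 had no tested start site. The part of other cell types in the results was not tested.

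The promoters of the members differ in composition, and the 4 sequences that follow show the range from the most accessible promoter (NFE2L2) to the least accessible one (MAF), with the other 2 being those that held a searched motif (MAFF and BACH1). Each is the 250 bases before the outermost RefSeq start on GRCh38.p14, read 5′ to 3′ on the gene's strand. Positions are chr2:177264728-177264977 (minus strand) for NFE2L2, chr16:79600738-79600987 (minus) for MAF, chr22:38201744-38201993 (plus) for MAFF and chr21:29298672-29298921 (plus) for BACH1. Capitals mark motif matches.
NFE2L2: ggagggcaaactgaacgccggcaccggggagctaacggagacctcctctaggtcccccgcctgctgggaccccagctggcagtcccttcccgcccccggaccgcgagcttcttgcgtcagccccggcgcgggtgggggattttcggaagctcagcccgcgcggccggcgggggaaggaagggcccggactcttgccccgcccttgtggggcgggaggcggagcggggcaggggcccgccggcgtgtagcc
MAF: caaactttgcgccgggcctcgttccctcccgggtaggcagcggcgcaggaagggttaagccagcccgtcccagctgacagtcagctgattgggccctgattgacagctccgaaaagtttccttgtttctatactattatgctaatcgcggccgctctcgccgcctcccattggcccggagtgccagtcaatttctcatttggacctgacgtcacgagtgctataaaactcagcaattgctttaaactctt
MAFF: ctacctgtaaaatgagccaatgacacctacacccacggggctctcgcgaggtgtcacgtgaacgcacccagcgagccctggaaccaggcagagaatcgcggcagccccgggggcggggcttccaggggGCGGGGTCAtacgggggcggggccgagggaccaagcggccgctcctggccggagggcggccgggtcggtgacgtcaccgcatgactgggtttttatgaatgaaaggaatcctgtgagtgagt
BACH1: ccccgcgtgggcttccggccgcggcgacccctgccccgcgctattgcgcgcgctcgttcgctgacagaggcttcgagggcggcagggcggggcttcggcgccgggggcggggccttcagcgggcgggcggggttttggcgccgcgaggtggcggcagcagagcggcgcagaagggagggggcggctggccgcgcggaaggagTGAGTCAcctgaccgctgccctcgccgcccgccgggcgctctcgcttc
The motifs searched on both strands were TGACTCA (the AP-1 and NF-E2 core), the longer MAF recognition element, the antioxidant element TGACNNNGC, and the motif of GATA factors, AGATAA. The first motif can lie within the longer element. In BACH1 the capitals are TGAGTCA, the reverse strand of TGACTCA, at 48 to 42 bases before the start. Such a match is present in 3.44% of 22182 promoter sequences of the same length. In MAFF they are a reverse-strand match to TGACNNNGC at 122 to 114 bases before the start, a motif that 11.2% of promoters hold. The longer element (0.266% of promoters) and AGATAA (7.09%) had no match in these 4 sequences. The 250 bases of BACH1 were 78.4% G or C with 40 CG dinucleotides, those of BACH2 73.6% with 40, those of NFE2L2 74.8% with 27, those of MAFF 65.6% with 22, and those of MAF 54.4% with 16. Over all promoters the medians were 62% and 16.

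The 8 loci did not move alike. Around MAF and BACH2, the 2 longest genes, most calls were gains, and around NFE2, NFE2L2 and MAFG most were losses. At 6 h 73 of 241 tested member sites were higher, where 23.4% of all tested sites were, and 55 were lower, where 16.8% of all were. At 72 h 87 were higher (38.2% of all sites) and 87 lower (29.2% of all). Between 6 and 72 h 32 rose (22.1% of all) and 74 fell (20.9% of all). The contrasts share libraries pairwise, so their calls are not independent. An effect of time in any direction was called at 195 member sites (72% of all). The median log2 fold change of the tested members was 0.04 at 6 h and -0.05 at 72 h, beside 0.05 and 0.29 over all tested sites. The split between gains and losses depended on scaling. With TMM factors from sites that carried a peak in all 6 libraries it was 92 higher to 31 lower at 6 h. It was 130 to 41 at 72 h and 90 to 21 between 6 and 72 h. Over all tested sites that scaling called 29.6% higher and 8.7% lower at 6 h and 57.8% and 11% at 72 h. Between 6 and 72 h the shares were 43.4% and 5.23%. With total-count scaling the split was 109 to 62 at 72 h (48% and 19.5% of all sites). It was 58 to 43 between 6 and 72 h (32.1% and 11.5% of all). That first scaling moved the median of all sites at 72 h to 1.26 and total counts moved it to 0.79. At a stricter threshold, an adjusted p under 0.01 with a log2 change above 1 in size, 23 losses at 6 h were called (7.11% of all sites), and between 6 and 72 h 20 gains (14% of all) and 34 losses (8.56% of all). Called under all 5 scalings run were 63 gains and 31 losses at 6 h, and 59 gains and 35 losses at 72 h. The share of all tested sites called under all 5 was not worked out, here or for the counts by locus below. It cannot exceed the smallest share under any 1 scaling. That was 19.3% higher (loess offsets) and 8.7% lower (shared peaks) at 6 h, and 29% and 11% at 72 h. Without 0 h replicate 2 the median of the members at 6 h was 0.16, beside 0.07 over all tested sites. Between 6 and 72 h the member median was -0.25 with all libraries, beside 0.03 over all tested sites. It was -0.15 without 72 h replicate 2 and -0.15 without 6 h replicate 2 (0.08 over all sites in each). Without 72 h replicate 1 it was -0.23 (0.06 over all sites). Each such fit leaves 1 library in a group, so its calls were not counted over the members.

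At 72 h the BACH2 locus (chr6:89926528-90296843 with its flanks) had 47 higher and 12 lower of 83 tested sites, and the MAF locus (chr16:79202622-79600737) 15 higher and 3 lower of 26. The remaining 2 MAF sites, 200 and 201 bases wide, did not pass the filter on low counts. NFE2 (chr12:54292111-54301015) had 2 higher and 18 lower of 25, NFE2L2 (chr2:177230303-177264727) 2 and 15 of 20, and MAFG (chr17:81918270-81931244) 2 and 18 of 24. MAFK (chr7:1530702-1543043) had 4 higher and 9 lower of 21, MAFF (chr22:38201994-38216511) 7 and 4 of 20, and BACH1 (chr21:29298922-29361894) 8 and 8 of 22. Fewer calls were made under all 5 scalings: gains at 34 BACH2, 12 MAF, 5 MAFF, 4 BACH1, 2 MAFG and 2 MAFK sites, with 0 at NFE2 and NFE2L2. Losses under all 5 stood at 11 sites for NFE2, 11 for MAFG, 6 for NFE2L2, 3 for BACH1, 2 for MAFF, 2 for BACH2 and 0 for MAF and MAFK. The loci also differ in the kind of sites they hold. NFE2 and MAFG lie among other genes, with 7 and 12 sites at the start of another gene, whereas 71 of the 83 BACH2 sites and 15 of the 28 MAF sites lie inside the long gene body. Of the 28 sites at starts of neighbouring genes, 21 were lower and 1 higher at 72 h, beside the 72.4% lower at all starts. At starts of known strand it was 12 lower and 1 higher of 15, where 74.8% of such sites were lower. Away from starts, 84 of 200 tested member sites were higher at 72 h (41.5% of such sites overall) and 57 lower (24.2% overall). Among distal sites alone, 47 of 81 were higher at BACH2 and 15 of 25 at MAF, against 2 of 16 at NFE2, 2 of 18 at NFE2L2 and 2 of 10 at MAFG.

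**Figure D1:**
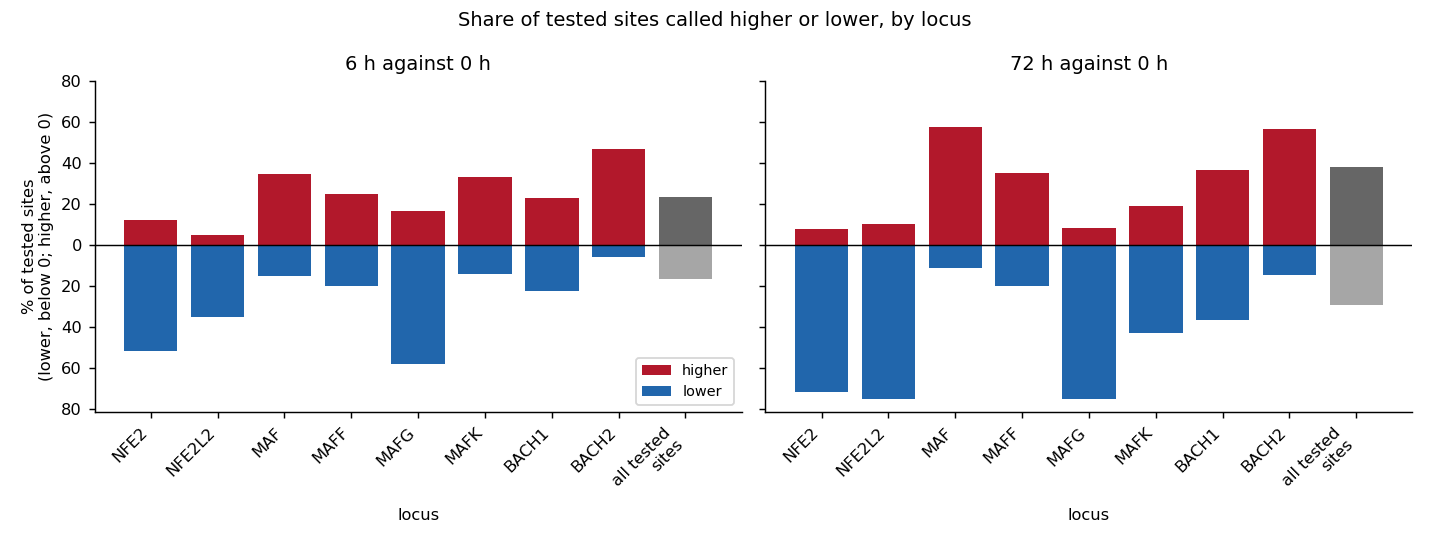
Share of tested sites called higher (above 0) or lower (below 0) at 6 h and 72 h against 0 h for each of the 8 loci, in percent, with all 177759 tested sites in grey. MAF and BACH2 have the tallest bars for gains at 72 h (57.7% and 56.6%), and NFE2L2 and MAFG the longest bars for losses (75% each).

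**Figure D2:**
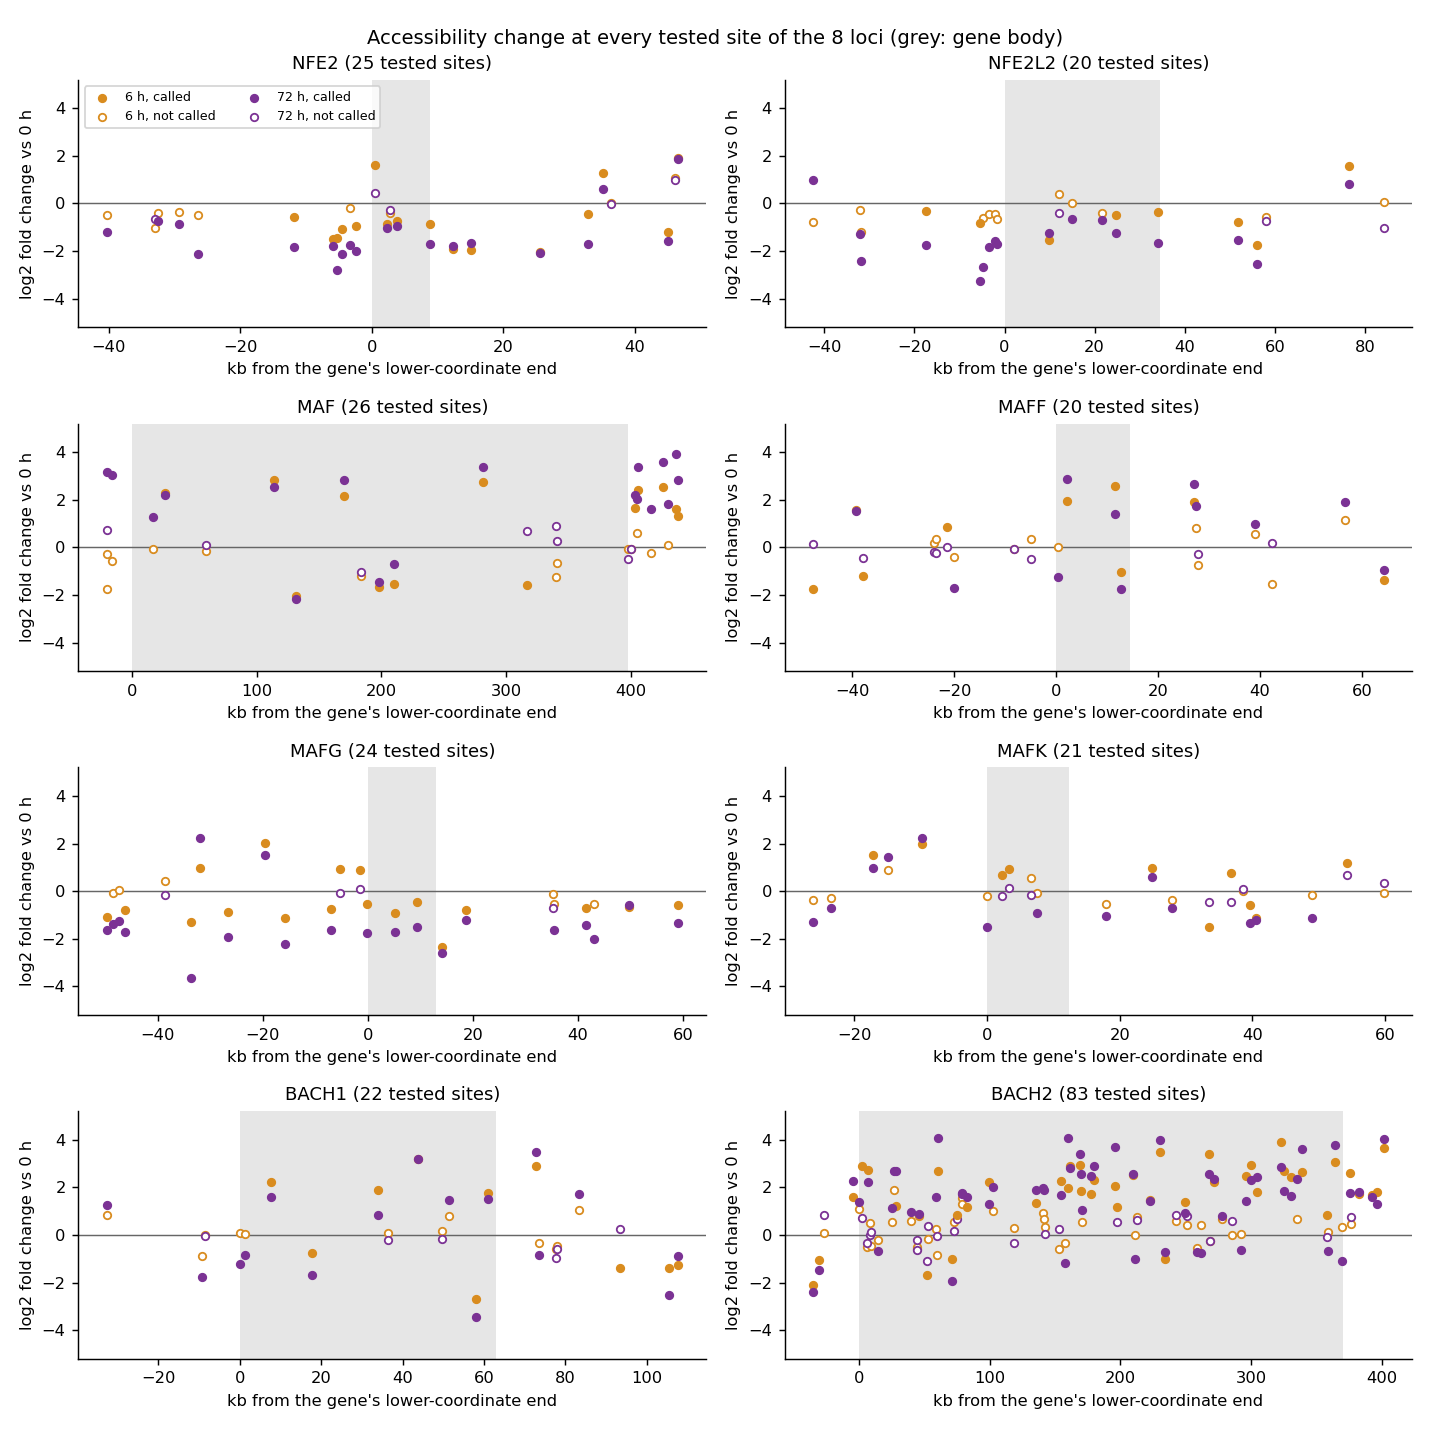
Log2 fold change against 0 h at every tested site, by distance in kb from the gene's lower-coordinate end, with the gene body in grey. Filled points were called, open points were not. Gains spread over the whole BACH2 body, while around NFE2 most called points lie below 0.

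The strongest promoter sites were open before PMA and lower at 72 h. Per kb of site width, the main promoter site of NFE2L2 had the highest level at 0 h (61.5 and 71.8 CPM per kb), followed by BACH1 (40.9 and 45.1) and NFE2 (32.9 and 42.2), whose ranges overlap. MAFG (23.9 and 27.4) and MAFF (23.6 and 22.8) came next and lay close together. BACH2 (15.6 and 21.2) and MAFK (16.7 and 16.8) overlapped, and MAF was lowest (4.14 and 6.04). At 72 h NFE2L2 (19.5 and 23.2) and BACH1 (18.3 and 18.6) were still the highest and MAF (4.44 and 2.85) the lowest by mean. The rule for promoter sites, within 1000 bases of a member's start, took 13 sites, of which 1 (peak41493) lies at the 3′ end of NFE2 and was taken because the tables give no strand for that gene. Of the other 12, 9 were lower and 2 higher at 72 h, with a median log2 fold change of -1.23. Sites at all protein-coding starts had a median of -1.20, and those of known strand also -1.23. The median of the 12 sites was -0.73 with total counts, -0.26 with TMM factors from shared peaks and -0.05 with loess offsets, which remove any trend with site strength. Only 2 of the 9 losses, at NFE2 and at the MAFG site shared with PYCR1, and both gains, at MAFF and BACH1, were called under all 5 scalings.

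**Figure D3:**
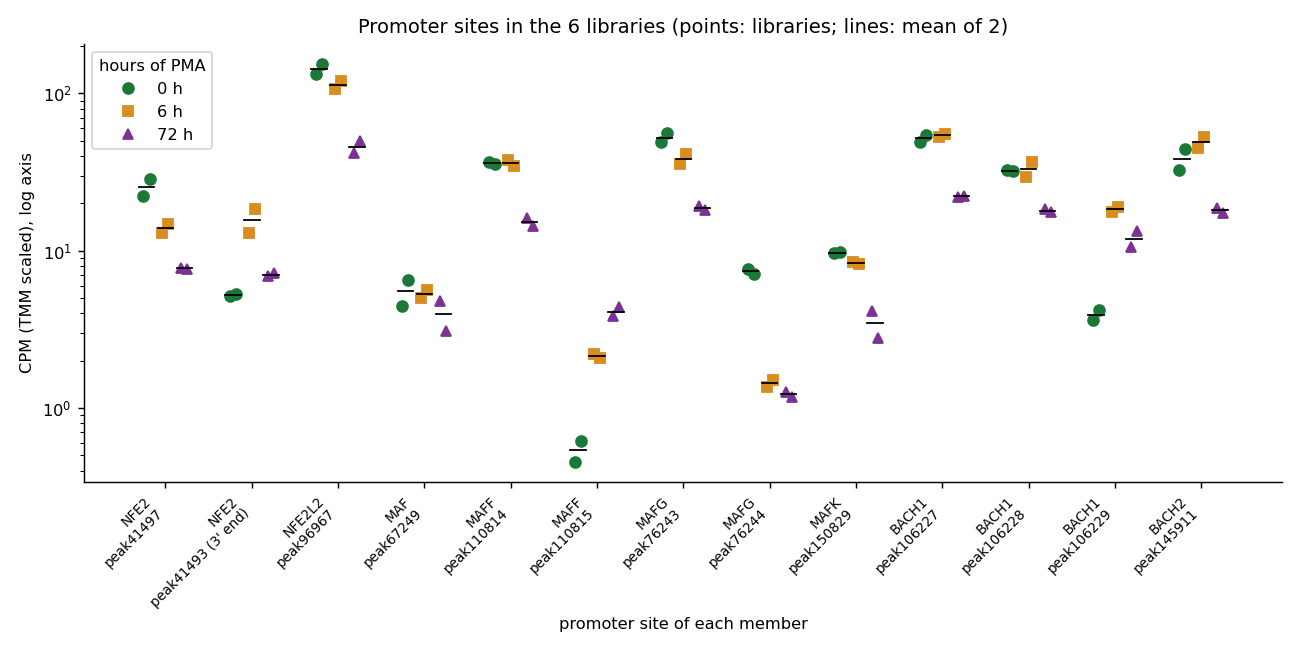
CPM (log axis) of the 12 promoter sites and of peak41493 at the 3′ end of NFE2 in each of the 6 libraries, with the mean of the 2 libraries per time as a line. The 72 h points lie lowest at the main sites of NFE2, NFE2L2, MAFF, MAFG, MAFK, BACH1 and BACH2, and highest at the MAFF site peak110815.

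**Figure D4:**
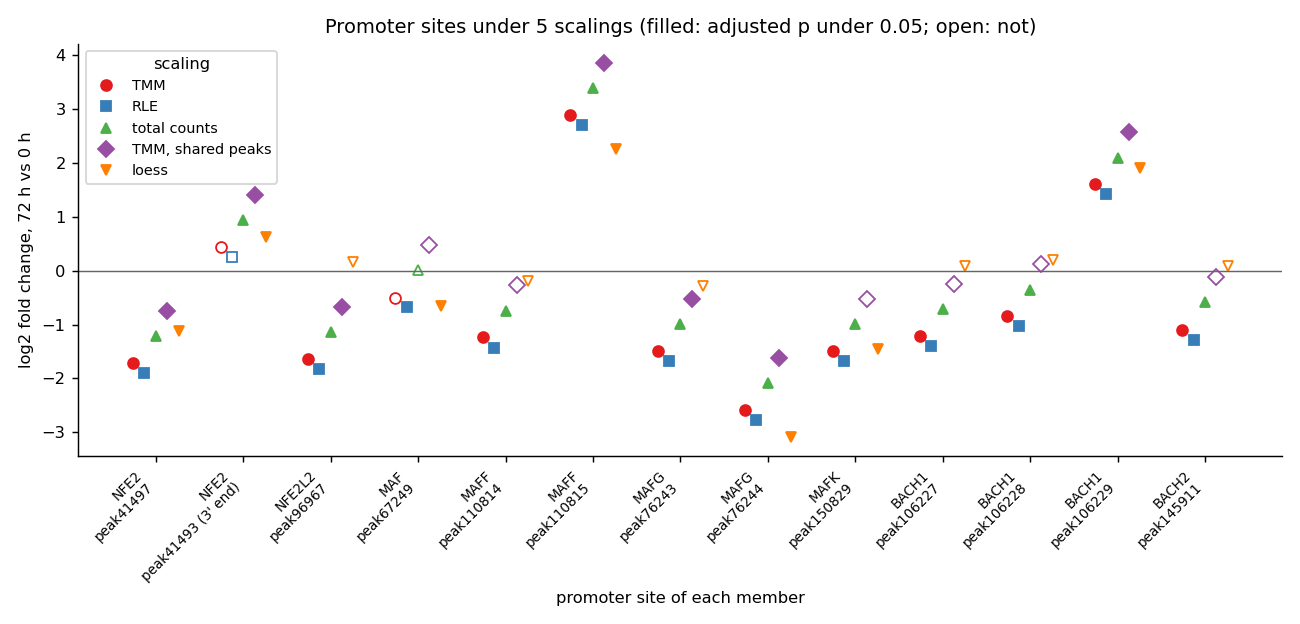
Log2 fold change at 72 h against 0 h of the same 13 sites under 5 scalings of the libraries, filled where the adjusted p was under 0.05. The sites peak41497, peak76244, peak110815 and peak106229 stay filled on one side of 0 under all 5, while the main sites of NFE2L2, BACH1 and BACH2 reach 0.16, 0.08 and 0.08 with loess offsets.

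NFE2, the megakaryocytic partner of the small MAF proteins, lost accessibility at its promoter and at a pair of sites before it, all 3 of which were lower at both later times. NFE2 is read from the minus strand, so its start is the higher-coordinate end. The promoter site peak41497 (chr12:54300675-54301350) had 22.2 and 28.5 CPM before PMA, 13 and 14.8 after 6 h and 7.79 and 7.66 after 72 h. Each time lay below the one before without overlap. The change was -0.87 ± 0.19 at 6 h (adjusted p = 8.6e-04) and -1.72 ± 0.19 at 72 h (adjusted p = 8.2e-08). The step from 6 to 72 h was -0.85 ± 0.19 (adjusted p = 0.0011). With loess offsets that step was -0.29 and with shared-peak factors -0.18, neither called. The site peak41498 (chr12:54304101-54304857), 3.1 kb beyond the start and in no protein-coding gene, was the strongest distal site of the locus, with 48.9 and 45.4 CPM without PMA, then 11.5 and 13.2 at 6 h, and finally 13.4 and 14.1 at 72 h. All 4 treated libraries were far below both untreated ones. It fell by 1.92 ± 0.17 on the log2 scale at 6 h (adjusted p = 1.0e-08) and stayed at -1.77 ± 0.16 at 72 h. The neighbouring site peak41499 (chr12:54306894-54307607), 5.9 kb beyond the start, had 28.7 and 32.5 CPM at 0 h, 6.65 and 8.76 after 6 h and 9.39 and 10.3 after 72 h. Its change was -1.96 ± 0.20 at 6 h (adjusted p = 6.8e-08) and -1.64 ± 0.19 at 72 h. Both sites were called lower at both times under all 5 scalings. Whether they recovered a little between 6 and 72 h was not settled, since the rise of 0.15 and 0.33 was not called with TMM but was called with total counts, loess offsets and shared-peak factors (for example 0.82 and 1.00 with the last).

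The other end of NFE2 had a gain. The site peak41493 (chr12:54292226-54292819), at the lower-coordinate end, which is the gene's 3′ end, rose from 5.13 and 5.30 CPM to 13 and 18.4 at 6 h and was at 6.93 and 7.19 at 72 h. The 6 h libraries were the highest, and the 72 h libraries lay above the untreated ones by 0.44 ± 0.23, which was not called (adjusted p = 0.094). With total counts (0.94, adjusted p = 8.3e-04), loess offsets (0.63, adjusted p = 0.016) and shared-peak factors (1.40, adjusted p = 1.1e-05) that difference was called. The rise at 6 h was 1.61 ± 0.23 (adjusted p = 7.7e-06), under every scaling run, and the later fall was -1.17 ± 0.21 (adjusted p = 1.6e-04), which was -0.50 with an adjusted p of 0.051 with shared-peak factors. Among called distal sites of at least 1 CPM on average, peak41486 (chr12:54265434-54266046) had the largest change at 72 h. It lies inside CBX5, which encodes a heterochromatin protein, and overlapped a deposited peak in 0 of 6 libraries. The site fell from 3.70 and 4.63 CPM to 0.879 and 1.01 at 72 h. That is -2.14 ± 0.32, with an adjusted p of 4.5e-06.

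NFE2L2 had the most accessible promoter of the 8 genes. Its promoter site peak96967 (chr2:177263341-177265487) had 132 and 154 CPM before PMA, 106 and 120 after 6 h and 41.8 and 49.9 after 72 h. The 72 h libraries were clearly lowest. The change at 72 h was -1.64 ± 0.14 (adjusted p = 2.3e-09), but 0.16 with loess offsets (adjusted p = 0.229). The small difference at 6 h, -0.34 ± 0.13 (adjusted p = 0.047), was not called without 0 h replicate 2 (-0.22, adjusted p = 0.292) or without 6 h replicate 1 (-0.25, adjusted p = 0.284), nor under 3 of the 5 scalings. Firmer losses lay beyond the 3′ end of the gene. At peak96957 (chr2:177224349-177225202) the values were 13.5 and 23.3 CPM without PMA, then 8.27 and 12.5 at 6 h, and finally 2.28 and 1.65 at 72 h. The 72 h libraries were far below the other 4, and the change was -3.24 ± 0.28 (adjusted p = 3.5e-09). The adjacent peak96958 (chr2:177225341-177225772) went from 6.04 and 8.79 CPM to 1.45 and 0.896, by -2.67 ± 0.32 (adjusted p = 2.8e-07). Both 72 h losses were called under all 5 scalings. At 6 h peak96957 was at -0.80 ± 0.25 (adjusted p = 0.015), which was -0.34 (adjusted p = 0.357) without 0 h replicate 2 and -0.56 (adjusted p = 0.138) without 6 h replicate 1. The strongest site inside the gene, peak96966 (chr2:177254361-177255663), fell from 20.3 and 24.6 CPM to 8.66 and 10.3 at 72 h, by -1.24 ± 0.19 (adjusted p = 5.6e-06). With shared-peak factors this was -0.27 (adjusted p = 0.178).

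MAFF, the small MAF gene known to be inducible by stress and cytokine signals, showed both gains and losses inside its short body. The promoter site peak110814 (chr22:38201538-38203088), which spans both RefSeq starts and the sequence printed above, had 36.6 and 35.4 CPM at 0 h, 38.0 and 34.7 after 6 h and 16.2 and 14.3 after 72 h. It was lower in both 72 h libraries than in the other 4, by -1.24 ± 0.16 (adjusted p = 4.6e-07), but -0.19 and -0.27 with loess offsets and shared-peak factors, neither called. Just inside the gene, peak110815 (chr22:38203878-38204364) rose from 0.455 and 0.621 CPM to 2.22 and 2.09 at 6 h and 3.83 and 4.36 at 72 h. The 3 times did not overlap. The gain was 1.96 ± 0.40 at 6 h (adjusted p = 5.4e-04) and 2.89 ± 0.37 at 72 h (adjusted p = 6.9e-07). The step from 6 to 72 h was 0.94 ± 0.30 (adjusted p = 0.016). It was not called with loess offsets (0.63, adjusted p = 0.113) or with DESeq2 (0.90, adjusted p = 0.082). Near the 3′ end, 2 neighbouring sites went opposite ways. The first, peak110816 (chr22:38213212-38213848), had 1.23 and 1.34 CPM before PMA, 6.31 and 8.92 after 6 h and 2.95 and 3.82 after 72 h. It was highest at 6 h, 2.58 ± 0.31 above 0 h (adjusted p = 9.7e-07), and 1.39 ± 0.32 above at 72 h. Its fall between 6 and 72 h, -1.19 ± 0.26 (adjusted p = 9.5e-04), was not called without 6 h replicate 2 (-0.85, adjusted p = 0.059) or 72 h replicate 1 (-0.96, adjusted p = 0.054). The second, peak110817 (chr22:38214345-38215165), was lowest at 72 h, with 11.3 and 13.2 CPM without PMA, then 6.73 and 5.53 at 6 h, and finally 4.19 and 3.23 at 72 h, a change of -1.73 ± 0.23 (adjusted p = 1.3e-06) that was called under all 5 scalings.

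Away from the MAFF gene, the strongest distal site peak110807 (chr22:38163570-38164538), inside the phospholipase gene PLA2G6, dipped at 6 h. It had 17.1 and 10.6 CPM at 0 h, 5.11 and 6.67 after 6 h and 9.54 and 10.9 after 72 h. The 6 h libraries were lowest, at -1.19 ± 0.24 (adjusted p = 4.7e-04). Against 0 h, where the replicates differ most, the 72 h value was not called, at -0.43 ± 0.23. It was called lower without 0 h replicate 2 (-0.74, adjusted p = 0.0086) and with RLE factors (-0.61, adjusted p = 0.024), and higher with shared-peak factors (0.53, adjusted p = 0.044). On the other side, peak110818 (chr22:38228631-38229277), inside TMEM184B, rose from 0.325 and 0.430 CPM to 2.20 and 2.66 at 72 h, by 2.65 ± 0.48 (adjusted p = 5.2e-05). Its 6 h gain of 1.89 ± 0.52 rested on 6 h replicate 2, and was 0.93 (adjusted p = 0.339) without it.

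MAFG, a small MAF partner of p45 in blood cells, lies in a gene-dense stretch, and most of its sites lost signal. The promoter site peak76243 (chr17:81926551-81928588) had 48.8 and 55.8 CPM before PMA, 35.4 and 41.2 after 6 h and 19.2 and 18.1 after 72 h. The times did not overlap, and the 72 h change was -1.49 ± 0.15 (adjusted p = 3.2e-08), but -0.29 (adjusted p = 0.068) with loess offsets. Its 6 h change of -0.45 ± 0.15 was not called without 0 h replicate 2 (adjusted p = 0.141) or 6 h replicate 1 (adjusted p = 0.170). A narrow site near the outer MAFG start, peak76244 (chr17:81932186-81932497), also lies at a start of PYCR1, a proline synthesis gene. It dropped from 7.67 and 7.12 CPM to 1.36 and 1.52 at 6 h and 1.27 and 1.18 at 72 h. All treated libraries were below both untreated ones, by -2.33 ± 0.30 at 6 h (adjusted p = 2.3e-06) and -2.59 ± 0.28 at 72 h (adjusted p = 8.0e-08). Inside the gene, the strongest distal site peak76242 (chr17:81922950-81924008) fell from 44.0 and 45.7 CPM to 19.3 and 27.3 at 6 h and 11.9 and 15.2 at 72 h, by -1.73 ± 0.18 (adjusted p = 3.6e-08), under all 5 scalings. In the opposite direction, peak76236 (chr17:81898233-81899125), inside the cell cycle gene ANAPC11, rose from 4.55 and 8.07 CPM to 21.0 and 30.9 at 6 h and 15.6 and 21.6 at 72 h. Both later times were above 0 h, by 2.03 ± 0.25 (adjusted p = 1.1e-06) and 1.54 ± 0.24 (adjusted p = 1.1e-05). The weak site peak76233 (chr17:81884448-81884853) was nearly closed at 72 h, with 0.129 and 0.307 CPM (5 and 13 counts) after 2.53 and 3.01 at 0 h, a change of -3.63 ± 0.48. Without 72 h replicate 2 it was -4.37.

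At MAFK, the third small MAF gene, the clearest gain lay before the gene, which is read from the plus strand. The site peak150828 (chr7:1520446-1521245), 9.5 kb before the start, had 3.90 and 4.06 CPM without PMA, then 16.9 and 14.5 at 6 h, and finally 17.9 and 19.9 at 72 h. All treated libraries were well above both untreated ones, by 1.97 ± 0.21 at 6 h (adjusted p = 1.9e-07) and 2.24 ± 0.21 at 72 h (adjusted p = 8.0e-09). Further out, peak150826 (chr7:1513162-1513865) went from 3.18 and 4.11 CPM to 8.27 and 12.7 at 6 h and 6.44 and 7.83 at 72 h. It was above 0 h at both times, by 1.54 ± 0.26 and 0.96 ± 0.26 (adjusted p = 7.0e-05 and 0.0026). The gain at 6 h of both sites held under all 5 scalings. The promoter site peak150829 (chr7:1530429-1531009) overlapped a deposited peak in only 2 of 6 libraries. It had 9.68 and 9.75 CPM at 0 h, 8.44 and 8.25 after 6 h and 4.14 and 2.78 after 72 h, and the 72 h change was -1.49 ± 0.24 (adjusted p = 1.2e-05), or -0.52 (adjusted p = 0.059) with shared-peak factors. A site 1.9 kb inside the gene, peak150830 (chr7:1532615-1533351), was more open than the promoter site itself, at 14.2 and 16.7 CPM before PMA, 22.3 and 26.5 after 6 h and 13.3 and 13.9 after 72 h. It was highest at 6 h, 0.66 ± 0.18 above 0 h (adjusted p = 0.0054). That gain was 0.49 (adjusted p = 0.061) without 0 h replicate 1 and 0.47 (adjusted p = 0.126) without 6 h replicate 2.

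MAF had the weakest promoter and the largest share of distal gains at 72 h. The promoter site peak67249 (chr16:79600072-79601154) had 4.48 and 6.54 CPM without PMA, then 5.03 and 5.60 at 6 h, and finally 4.81 and 3.09 at 72 h. The ranges of 0 h overlapped those of both later times, and the 72 h change of -0.50 ± 0.27 was not called (adjusted p = 0.111). It was -0.74 (adjusted p = 0.031) without 0 h replicate 1, -0.68 (adjusted p = 0.034) with RLE factors and -0.65 (adjusted p = 0.044) with loess offsets, all called, and 0.48 with shared-peak factors, not called. The strongest distal site, peak67245 (chr16:79484027-79484795), 115.9 kb downstream of the RefSeq start, rose from 1.04 and 1.48 CPM to 8.01 and 9.01 at 6 h and 12.4 and 14.5 at 72 h. It was already high at 6 h, by 2.73 ± 0.28 (adjusted p = 8.8e-08), and 3.39 ± 0.27 above 0 h at 72 h (adjusted p = 1.4e-09). On the upstream side, peak67258 (chr16:79639363-79641017), 38.6 kb before the start, opened more slowly. It had 2.40 and 1.96 CPM at 0 h, 6.82 and 4.46 after 6 h and 15.8 and 14.7 after 72 h, which is 1.33 ± 0.28 at 6 h (adjusted p = 5.8e-04) and 2.81 ± 0.26 at 72 h (adjusted p = 9.2e-09). The rise between 6 and 72 h, 1.48 ± 0.24, was itself called (adjusted p = 4.2e-05), and all 3 contrasts held under the 5 scalings.

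Most flanking sites of MAF gained. Of the 12 flanking sites on both sides, 10 were higher at 72 h and 0 lower, with a median of 2.92 among the 10. Some of the 10 had very few reads. Untreated counts were 2 and 0 for peak67231, 1 and 5 for peak67252, and 3 and 5 for peak67256. Their last counts were 29 and 14, 29 and 26, and 45 and 19. Others started from more, such as peak67258 with 37 and 41. How far the filter on low counts kept such sites because of their late counts was not tested. Inside the gene 5 of 13 tested sites were higher and 3 lower. Of all tested sites away from starts, 41.5% were higher and 24.2% lower at 72 h. The largest MAF gain was at peak67257 (chr16:79638348-79638837), next to peak67258. It had 6 and 2 counts before PMA, 7 and 24 after 6 h and 120 and 161 after 72 h. In CPM this was 0.390 and 0.0955, then 0.596 and 0.759, then 3.1 and 3.8. The 72 h gain of 3.92 ± 0.50 (adjusted p = 6.9e-07) depended on the few untreated counts and ranged from 3.13 to 5.10 when either 0 h library was left out. Its 6 h gain of 1.63 ± 0.62 was 0.85 (adjusted p = 0.356) without 0 h replicate 2, 1.35 (adjusted p = 0.251) without 6 h replicate 2, and 1.56 and 1.55 (adjusted p = 0.072 and 0.078) without either 72 h library. Summed over the 25 tested distal sites, the MAF locus had 37.8 and 41.9 CPM without PMA, then 48.7 and 44.6 at 6 h, and finally 89.0 and 88.5 at 72 h.

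**Figure D5:**
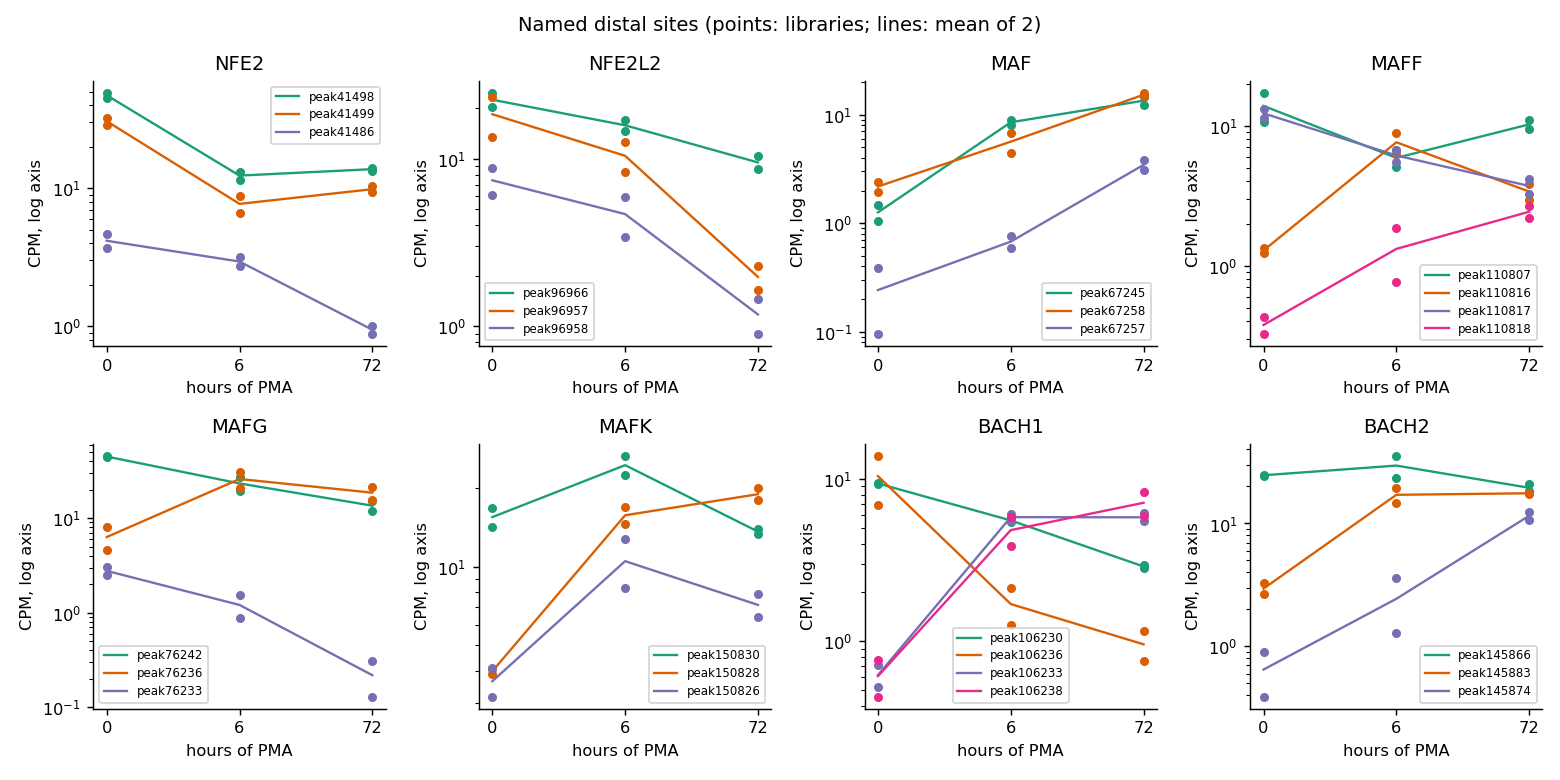
CPM (log axis) of the named distal sites of each locus at 0, 6 and 72 h, with points for the libraries and lines through the mean of 2. The NFE2 sites peak41498 and peak41499 drop by 6 h, the MAF and BACH2 sites shown in orange and violet rise, and the MAFF site peak110816 is highest at 6 h.

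BACH1, the haem-sensitive repressor, combined a promoter that was lower at 72 h with an internal site that opened early. The promoter site peak106227 (chr21:29298467-29299669), which covers the printed sequence with its TGAGTCA, had 49.3 and 54.3 CPM at 0 h, 53.1 and 55.4 after 6 h and 22 and 22.4 after 72 h. The 0 h and 6 h ranges overlapped and both 72 h libraries were lower, by -1.22 ± 0.14 (adjusted p = 2.0e-07). The adjoining site peak106228 (chr21:29299872-29300729) went from 32.6 and 32.1 CPM to 18.3 and 17.6 at 72 h, by -0.85 ± 0.16. Under loess offsets these were 0.08 and 0.20, and under shared-peak factors -0.25 and 0.12, none called. At 6 h peak106227 was at 0.07 with TMM, not called, but at 0.42 (adjusted p = 0.013) with loess offsets and 0.36 (adjusted p = 0.033) with shared-peak factors. By contrast peak106229 (chr21:29306188-29307000), 1.0 kb past the innermost RefSeq start, rose from 3.64 and 4.2 CPM to 17.6 and 19.0 at 6 h and 10.6 and 13.3 at 72 h. The 6 h libraries were highest, by 2.22 ± 0.22 (adjusted p = 7.0e-08), and the 72 h libraries were 1.60 ± 0.22 above 0 h (adjusted p = 1.5e-06). Both gains held under all 5 scalings.

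Deeper in BACH1, peak106233 (chr21:29342423-29343077) opened from 0.520 and 0.717 CPM to 5.54 and 6.10 at 6 h and 5.48 and 6.13 at 72 h. The 6 h and 72 h ranges overlapped, and the gains were 3.21 ± 0.34 (adjusted p = 1.4e-07) and 3.20 ± 0.33 (adjusted p = 3.4e-08). Past the 3′ end, peak106238 (chr21:29371369-29372033) rose from 0.455 and 0.764 CPM to 5.79 and 3.89 at 6 h and 5.95 and 8.32 at 72 h, by 3.50 ± 0.36 at the later time (adjusted p = 3.3e-08). Between these sites, peak106236 (chr21:29356634-29357433) closed. It had 13.9 and 6.93 CPM before PMA, 2.13 and 1.26 after 6 h and 1.16 and 0.755 after 72 h. The untreated replicates differed from each other, yet both lay above all treated libraries, and the change was -2.70 ± 0.36 at 6 h (adjusted p = 3.4e-06) and -3.43 ± 0.35 at 72 h (adjusted p = 3.0e-08). The strongest distal site, peak106230 (chr21:29316190-29317317), fell from 9.36 and 9.41 CPM to 5.45 and 5.66 at 6 h and 2.95 and 2.83 at 72 h, by -1.70 ± 0.23 (adjusted p = 1.7e-06).

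BACH2, the other repressor of the pair, had 83 sites, more than any other locus, and the largest number of gains. Inside the gene 33 of 71 tested sites were higher at 6 h, with a median of 2.29 among them and a range of 0.79 to 3.92, and 40 were higher at 72 h. Losses inside the gene numbered 3 at 6 h and 9 at 72 h. Over all tested sites 23.4% were higher and 16.8% lower at 6 h. Of all tested sites away from starts, 41.5% were higher and 24.2% lower at 72 h. Under all 5 scalings the locus kept 33 gains at 6 h and 34 at 72 h, and 2 losses at each time. The summed level of its 81 distal sites was 208 and 213 CPM without PMA, then 313 and 377 at 6 h, and finally 318 and 347 at 72 h. The clearest site was peak145883 (chr6:90135528-90136369), 160.5 kb downstream of the start, with 2.66 and 3.25 CPM at 0 h, 14.7 and 19.5 after 6 h and 17.4 and 17.8 after 72 h. All treated libraries were high and the 2 times overlapped, with gains of 2.54 ± 0.23 (adjusted p = 1.6e-08) and 2.56 ± 0.22 (adjusted p = 4.2e-09). A later pattern was seen at peak145874 (chr6:90086359-90087015), which had 0.390 and 0.908 CPM before PMA, 1.28 and 3.60 after 6 h and 10.7 and 12.4 after 72 h. Its 72 h libraries stood apart, 4.08 ± 0.39 above 0 h (adjusted p = 1.4e-08) and 2.10 ± 0.32 above 6 h (adjusted p = 2.3e-05). Without 6 h replicate 2, the 6 h gain of 1.98 was 0.85 (adjusted p = 0.262) and the later one 3.22. Without 0 h replicate 2 the 2 gains over 0 h were 2.79 and 4.87.

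The BACH2 promoter did not follow its gene body. The promoter site peak145911 (chr6:90295190-90297286) had 32.6 and 44.5 CPM without PMA, then 45.3 and 52.9 at 6 h, and finally 18.8 and 17.4 at 72 h. The 72 h libraries were the lowest, by -1.10 ± 0.17 against 0 h (adjusted p = 5.7e-06) and -1.45 ± 0.17 against 6 h (adjusted p = 1.2e-06). The fall against 6 h was called under all 5 scalings, whereas that against 0 h was 0.08 with loess offsets and -0.12 with shared-peak factors. The rise at 6 h, 0.35 ± 0.16, was not called with TMM (adjusted p = 0.092) but was 0.60 (adjusted p = 0.013) without 0 h replicate 2. It was also called with total counts (0.49, adjusted p = 0.017), with loess offsets and shared-peak factors (0.65 each) and in the fit blocked by replicate (0.35, adjusted p = 0.034). The strongest distal site, peak145866 (chr6:90044015-90045560), had 24.9 and 24.4 CPM at 0 h, 23.6 and 35.5 after 6 h and 18.2 and 20.8 after 72 h. The 72 h change of -0.34 ± 0.18 was not called (adjusted p = 0.102) and was called in opposite directions under other scalings (-0.52 with RLE factors, 0.64 with loess offsets and 0.63 with shared-peak factors).

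The deposited peak lists give a second view of the same sites. Of the 243 member sites, 31.3% overlapped a peak in both 0 h libraries, 43.6% in both 6 h libraries and 68.7% in both 72 h libraries, beside 27.8%, 31.1% and 62.8% of all 181135 sites. A peak in both 72 h libraries and in neither 0 h library was found at 86 member sites (35.4%, beside 33.1% of all sites), of which 43 were at BACH2 and 13 at MAF. The reverse was found at 8 sites (3.29%, beside 2.41% of all), of which 0 were at MAF and 2 at BACH2. The 72 h libraries were also the 2 with the most counts apart from 6 h replicate 2, so at 72 h the number of peaks and the depth were both high. At 6 h, replicate 1 had the fewest counts of all libraries, and the share with a peak in both libraries was above that at 0 h. The part of depth in these numbers was not tested.

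Genes that work with these factors were compared by the site at their start. Among 7 related factors and regulators, among them NFE2L1, NFE2L3, KEAP1 and CUL3, 6 start sites were lower at 72 h and 0 higher, with a median of -1.66. KEAP1, the adaptor that marks NFE2L2 for degradation, went from a mean of 59.7 to 16.3 CPM (-1.88) and CUL3, its ubiquitin ligase scaffold, from 56.4 to 16.8 (-1.75). Among 14 antioxidant and haem genes, 13 were lower and 1 higher, with a median of -1.51. The exception was HMOX1, the haem oxygenase that BACH1 represses, whose weak start site went from 0.347 to 1.01 CPM, by 1.58 (adjusted p = 0.017). SLC7A11, the cystine transporter, fell by 1.95 and TXNRD1, the thioredoxin reductase, by 1.13. Of 6 megakaryocyte genes bound by p45 NF-E2, 4 had a tested start site, with 1 higher and 2 lower. TUBB1, the platelet tubulin, rose from 1.16 to 2.35 CPM (1.00, adjusted p = 0.018), and RAB27B was not called (0.37, adjusted p = 0.186). The start site of TBXAS1, thromboxane synthase, fell from 17.4 to 8.90 CPM (-0.97, adjusted p = 1.5e-04), but it also lies at a start of HIPK2. The other loss was larger, from 69.7 to 24 CPM (-1.54, adjusted p = 1.2e-08), at a site shared with no other start. These counts stand beside 72.4% lower and 10.1% higher among all tested sites at starts. At the members' promoters the fall depended on scaling, and the start sites of these genes were examined with TMM only.

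Genes with start sites most like each member's main promoter site were found over the 6 libraries among 13458 promoter sites, by Euclidean distance of log2 CPM centred on each site's mean. They were TBC1D24, PDSS1 and GLUL for NFE2 (distances of 0.07, 0.10 and 0.11), COQ10B, NUP153 and FBXW7 for NFE2L2 (0.09, 0.10 and 0.10), and TNFRSF10A and ZSCAN29 for MAFG (0.06 and 0.08). For MAFF they were PISD, MAPRE2 and DIP2B (0.10, 0.13 and 0.13), for BACH1 IL6ST, HGS and CEP97 (0.07, 0.10 and 0.11), and for BACH2 MTRF1 and LHFPL2 (0.10 and 0.16). The distance to the nearest gene was largest for MAFK, with CR1, CD81 and SYT8 (0.18, 0.18 and 0.21), and MAF, with PVR, CITED1 and NAGPA (0.21, 0.26 and 0.28). The main promoter sites of MAFK and MAF also had the lowest CPM among the members. The part of low counts in these distances was not tested.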

How the data were processed

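The libraries were compared from the authors' deposited table of 181135 sites with raw read counts per library. The deposited counts are whole numbers with a different total in each library. Trim Galore 0.4.3, BWA 0.7.17, SAMtools 1.9, deepTools 3.0.1, MACS2, bedtools 2.26, DESeq and the build hg38 are named without roles, per the submitters' processing notes. How sites were merged, which reads were filtered and whether read ends were shifted are not given in the sources used here. The authors also deposited, per site, log2 fold changes, an adjusted p-value and a class, which are described only in the closing section. Per-library peak lists were deposited with a −log10 q-value per peak, as their column layout shows, and were used for overlap of at least 1 base.

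Table starts count from 0 and were shifted by 1. Genes came from RefSeq (GRCh38.p14), matched by symbol, all 8 members found. Starts came from the RefSeq promoter table, which holds 6 members and 79.1% of 20033 protein-coding genes. For NFE2 and MAFK both gene ends were used as starts, with the strand taken as background knowledge. Sites were classed as promoter (within 1000 bases of a member's start), start of another protein-coding gene, intragenic, or flanking. The last 2 are called distal.

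Counts were analysed in R 4.3.3 with edgeR 4.0.16 (TMM, filterByExpr, quasi-likelihood test, 3 groups, all 6 libraries, 177759 sites tested, Benjamini-Hochberg over all of them). SE is the log2 fold change divided by the root of F. The fit was also run on simulated counts with few changed sites and as many gains as losses. That setting differs from these data, so the run does not bear on the choice of scaling. Replicates differed by more than sampling noise (chi-square per degree of freedom of 3.5 to 4.95). Precision follows the counts, from 2 to 3804 per library at the named sites. Alternatives were RLE, total counts, loess offsets, TMM from sites with a peak in all libraries, no filter, DESeq2 1.42.0, a replicate block, a stricter threshold, each library left out and a 10 kb window.

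Named sites per member were all promoter sites, the strongest distal site, the 2 distal sites with the smallest time-course p and the distal site with the largest 72 h change among called sites of at least 1 CPM on average. Likeness used a pseudocount of 0.1 CPM. The members, gene lists, markers and motifs were chosen with earlier results of these data known. A few genes that these rules would name are not reported here.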

Additional observations from a re-analysis of the deposited data

How the results depend on the processing

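No paired structure is stated in the labels, and same-numbered libraries deviated together only weakly (r of 0.05 to 0.09 between times). With the replicate number as a block, there were 77 gains and 59 losses at 6 h, 92 gains and 88 losses at 72 h, and 34 gains and 78 losses between 6 and 72 h, close to those reported, and 194 sites changed over the time course. Over all tested sites the blocked fit called 24% higher and 18.2% lower at 6 h. It called 38.6% and 29.6% at 72 h, and 22.7% and 22% between 6 and 72 h.

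The 55 losses at 6 h became 31 with shared-peak factors, 23 at an adjusted p under 0.01 with a change above 1, and 29 within 10 kb, and lay between 35 and 55 with 1 library left out. The 87 losses at 72 h became 41 with shared-peak factors and 49 within 10 kb. Between 6 and 72 h the 32 gains became 58 with total counts, 90 with shared-peak factors, 19 with DESeq2, 20 at the stricter threshold and 17 within 10 kb, and lay between 19 and 40 with 1 library left out. The 74 losses became 43 with total counts, 48 with loess offsets, 21 with shared-peak factors and 34 at the stricter threshold. Within 10 kb 123 of the 195 time-course calls lay. Smaller windows hold fewer sites, and the counts within 10 kb have no share over all sites beside them. The cause of the other differences was not tested.

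At the named sites 56 of 1521 values under the alternatives had another sign than with TMM, 41 of them where neither value was called. The other 15, where at least 1 of the 2 values was called, were as follows. With loess offsets NFE2L2 peak96967 was at 0.24 at 6 h and 0.16 at 72 h, and at 72 h MAFK peak150830 was at 0.56, BACH1 peak106227 at 0.08, BACH1 peak106228 at 0.20, BACH2 peak145911 at 0.08 and BACH2 peak145866 at 0.64 (0.16 against 6 h). With shared-peak factors MAFF peak110807 was at 0.53, MAFK peak150830 at 0.78, BACH1 peak106228 at 0.12 and BACH2 peak145866 at 0.63 (all 72 h against 0 h), and against 6 h BACH1 peak106229 was at 0.05, BACH1 peak106233 at 0.66 and BACH2 peak145866 at 0.06. An alternative chosen after seeing the data, leaving out the site at the 3′ end of NFE2, left the promoter counts at 72 h at 9 lower and 2 higher. With 2 libraries per time, sites of few counts are the least precise.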

Other observations

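The authors' deposited table gives its own log2 fold changes, and their sign was that of the values reported here at 229 of 241 tested member sites at 6 h and 233 at 72 h, and at all 128 and 174 called ones. Its class names did not follow those signs. Of 12 member sites that the authors' deposited table classes as downEarly, 11 had a log2 fold change above 0 at 72 h in the same table and 11 were called higher here. Of 31 classed as upLate, 14 were called higher and 17 lower at 72 h. Over all tested sites, 6184 of 8934 sites classed as downEarly were called higher at 72 h. The classes were therefore not used.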
